A study of Mus musculus with 11 samples.

Results

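The genes described here are 40 genes of the cell division cycle, listed by symbol and followed through the cell types and libraries of a single-cell study of mouse colon. All 40 were found among the 29809 named genes of the count matrix, 16 of them acting in S phase and 24 in G2 and mitosis (G2/M). The S genes were the helicase subunits Mcm2 to Mcm7, the loading factor Cdc6, the helicase partner Gins2, the polymerase clamp Pcna, the nucleotide enzymes Rrm1, Rrm2 and Tyms, the cyclins Ccne1 and Ccne2, and the chromatin factors Hells and Uhrf1. The G2/M genes were the kinase Cdk1 and its cyclins Ccna2, Ccnb1 and Ccnb2, the mitotic kinases Aurka, Aurkb, Plk1, Bub1 and Bub1b, the anaphase factors Cdc20, Ube2c and Pttg1, the centromere proteins Cenpa, Cenpe and Cenpf, the spindle and midzone proteins Kif11, Kif20b, Kif23, Tpx2, Nusap1, Birc5 and Cdca8, the topoisomerase Top2a, and Mki67, the gene of the Ki-67 antigen.

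Dividing cells copy their DNA in S phase and separate it in mitosis, and the genes of each phase are transcribed in waves. E2F factors drive the S phase wave, while the G2/M wave depends on CHR promoter elements paired with CCAAT boxes. The CHR elements are read by the DREAM and MuvB complexes with B-MYB and FOXM1. In the colon, division normally takes place in the crypt base and its transit-amplifying cells, and most differentiated colonocytes and mature neutrophils have left the cycle.

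Single-cell 3' RNA sequencing was done on colonic mucosa, stripped of the myenteric layers and cleared of dead cells with annexin V antibodies. The Il10-/- library came from mice of about 10 months that lack interleukin 10 and had colitis with no chemical injury. The uninjured library came from wild-type mice of about 2 months. The other 9 libraries came from wild-type mice of that age given 3% dextran sulfate sodium (DSS), which injures the colonic epithelium, for 6 days. These were taken at days 6, 7 and 9, days 11 and 12, days 16, 18 and 19, and day 23, counted from the first day of DSS.

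Each group was 1 library from pooled mice. The DSS libraries of days 7, 11 and 18 (batch C) were processed fresh from 3 mice each, and the other 8 libraries were frozen, from 8 mice each by the cell table. Batch, storage and number of mice cannot be told apart, and the Il10-/- mice differed from the uninjured mice in age as well as genotype. The 11 libraries held 55603 cells, 1820 to 8953 per library, with 7922350 to 87012379 UMIs per library (a UMI marks 1 captured RNA molecule) and a median of 2116.5 to 7809.5 per cell. There were 611 cell barcodes that occurred in more than 1 library. Cell types were those of the authors' deposited annotation.

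The promoters of 3 members are shown, chosen after their motifs were known, since they stand for an S gene, a G2/M gene and a gene with both kinds of element. Windows ran from 250 bases before to 50 after the RefSeq gene start on GRCm38.p6, and each is written 5′ to 3′ along the gene's own strand, which was the minus strand in all 3. Capitals mark 3 kinds of element searched on both strands, and overlapping matches run together. The CHR element was taken as TTNGAA, in which the open letter was limited to T or C. The CCAAT box was searched as the plain word CCAAT, as its name says. The E2F element was read as TTNNCGC, in which both open letters were limited to C or G. Top2a, which untangles DNA strands, lies at chr11:99024140-99024439 and held 4 CHR elements and 6 CCAAT boxes. Cdk1, the mitotic kinase, lies at chr10:69352863-69353162 and held 2 CHR elements, 3 CCAAT boxes and 2 E2F elements. Mcm6, a subunit of the replicative helicase, lies at chr1:128359656-128359955 and held 5 E2F matches and 2 CCAAT boxes.
Top2a: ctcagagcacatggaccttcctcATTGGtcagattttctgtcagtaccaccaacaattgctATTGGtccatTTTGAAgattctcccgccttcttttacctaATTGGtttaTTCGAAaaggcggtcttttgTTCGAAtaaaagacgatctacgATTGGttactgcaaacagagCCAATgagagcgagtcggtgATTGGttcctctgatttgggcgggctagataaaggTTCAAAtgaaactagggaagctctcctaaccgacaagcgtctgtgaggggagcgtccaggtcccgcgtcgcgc
Cdk1: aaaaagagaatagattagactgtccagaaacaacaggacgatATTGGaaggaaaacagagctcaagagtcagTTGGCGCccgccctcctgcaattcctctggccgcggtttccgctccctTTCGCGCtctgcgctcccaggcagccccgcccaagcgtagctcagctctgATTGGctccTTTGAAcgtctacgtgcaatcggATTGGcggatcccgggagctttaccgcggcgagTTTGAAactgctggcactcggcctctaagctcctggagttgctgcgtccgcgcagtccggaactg
Mcm6: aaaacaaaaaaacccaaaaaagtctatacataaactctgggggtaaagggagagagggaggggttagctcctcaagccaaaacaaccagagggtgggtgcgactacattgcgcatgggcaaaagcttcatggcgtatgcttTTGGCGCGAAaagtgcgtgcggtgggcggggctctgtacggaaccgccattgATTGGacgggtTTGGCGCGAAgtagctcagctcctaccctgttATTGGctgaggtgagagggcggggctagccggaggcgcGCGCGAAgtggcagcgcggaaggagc

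The 2 phases differed in these windows. RefSeq windows were found for 34 of the 40 members (36 windows), and Aurkb, Ccna2, Ccne2, Gins2, Mcm4 and Tpx2 were not matched. A CHR element was in 16 of 21 G2/M windows (76.2%) and in 2 of 15 S windows (13.3%), and 19.2% of all 32851 promoter windows held one. E2F elements had the opposite order, in 3 of 21 G2/M windows (14.3%) and in 11 of 15 S windows (73.3%), beside 9.57% of all windows. CCAAT boxes were in 81.0% of the G2/M windows and 73.3% of the S windows, beside 37.4% of all. CHR and CCAAT together were in 15 of 21 G2/M windows (71.4%), beside 7.52% of all. Birc5, Ccne1, Nusap1, Pttg1 and Tyms held none of the 3, which says only that these letters are not in these windows. The windows of Pttg1, Cdc6, Cdca8 and Mcm7 and 1 of those of Uhrf1 lay wholly inside the gene as the GENCODE annotation bounds it, so they leave out the sequence before that start.

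To count dividing cells, each cell was thinned to 1000 UMIs and called in cycle when at least 3 of them were from the 40 genes. Cells with fewer UMIs were left out, 11.4% of cells in all and 2.87% to 20.5% per library. By this count 1524 of 49262 cells were in cycle. Over all types together the share in cycle was 2.33% in Il10-/-, 0.881 in uninjured, and 1.19 at day 6, 1.46 at day 7, 2.54 at day 9, 4.97 at day 11, 1.98 at day 12, 3.33 at day 16, 4.90 at day 18, 2.77 at day 19 and 2.46 at day 23. The fresh libraries of days 11 and 18 were the highest, at 4.97% (95% exact binomial interval 4.52% to 5.45%) and 4.90% (4.44% to 5.38%), and the uninjured library the lowest, at 0.881% (0.482% to 1.47%). Intervals cover counting error only and not the variation between mice.

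Cycling was concentrated in 3 of the authors' types, T-Prolif, Crypt-1 and the proliferating macrophages, and all other types held 661 of the 1524 cells in cycle. T-Prolif, a proliferating T cell type, had 45.2% to 96.0% of its cells in cycle in the 7 libraries with at least 20 thinned cells. The low value was day 18, where the median share of mitochondrial UMIs in these cells was 68.7%, and without it the range was 78.8% to 96.0%. Crypt-1, of the crypt epithelium, had 35.4% to 64.5% in cycle over 9 libraries, with a median of 46.2%. Proliferating macrophages had 71 of 119 thinned cells in cycle over all libraries, and 30.8% in Il10-/-, their 1 library with at least 20 cells. By phase, with at least 2 UMIs of that phase's genes, T-Prolif cells had a median of 53.1% with S genes and 75.8% with G2/M genes, and Crypt-1 cells 16.9% and 46.7%. These types were named by clustering, which may have used the same genes, so their levels are a description.

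Their sister types were mostly out of cycle. Crypt-2 had 0% to 2.52% of cells in cycle and the remaining T cells (T-NA) 0% to 6.40%. The endothelial type marked by Selp and Sele, which are leukocyte adhesion molecules, had enough cells only on days 7, 11 and 18, with 7.94% to 9.76% in cycle. Blood endothelial cells without a subtype name had 0% to 9.68% over 9 libraries, with a median of 3.01%. Lymphatic endothelial cells had 0% to 5.56% over 7 libraries, and fibroblasts without a subtype name 0% to 9.09% over 3. Neutrophils, smooth muscle and enteric glia were planned as background, and neutrophils had 0% to 1.63%. Of the authors' myofibroblast types, Myofibroblast-NA had 0% to 1.11% and Myofibroblast-Apold1 0% to 8.33%, over 3 libraries each. Enteric glia had 0 of 62 thinned cells in cycle, with under 20 cells in every library. Among further types, the Car4 colonocytes and the Car4/Ly6g colonocytes had 0% to 0.898%, and Dpep1/Guca2a colonocytes and dendritic cells 0%. Median depth before thinning was 3128 UMIs in neutrophils, 24095 in Crypt-1 cells and 5861.5 in T-Prolif cells.

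**Figure D1:**
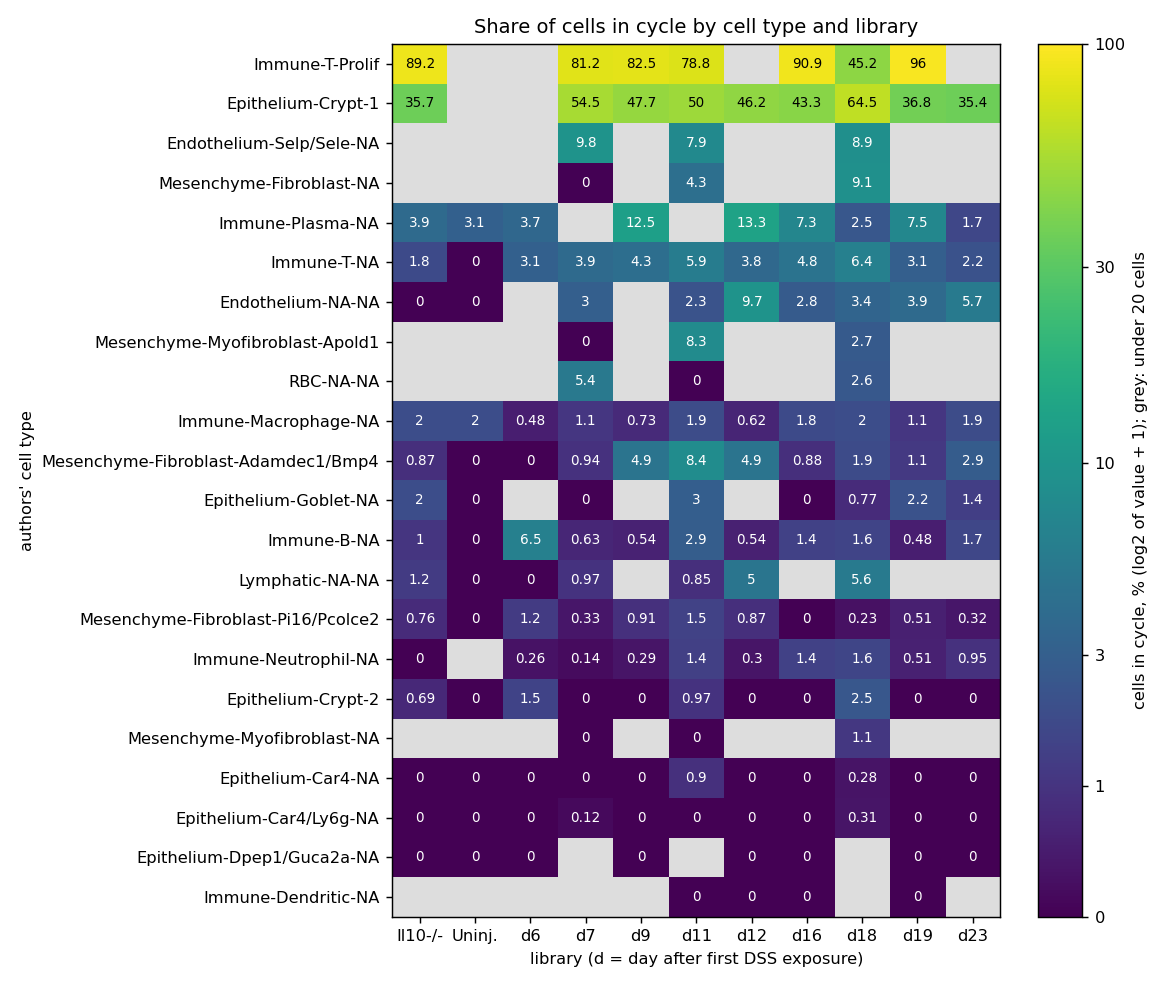
Percent of cells in cycle (colour, on a log2 scale of value + 1) for each type of the authors (rows) and library (columns, from Il10-/- and uninjured through the DSS days), with grey where fewer than 20 thinned cells were left. T-Prolif and Crypt-1 stand at the top, at 35.4% or more in every library shown, and most colonocyte cells are at or near 0%. Proliferating macrophages, with enough cells in Il10-/- alone, are not shown.

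The makeup of the cycling cells differed between libraries. Epithelial cells were 12.0% of the 108 cells in cycle in Il10-/- and 57.1% of the 14 in the uninjured library. In the DSS libraries they were 33.3% of 24 cells at day 6, 12.1% of 107 at day 7, 20.8% of 101 at day 9, 55.0% of 424 at day 11, 17.9% of 67 at day 12, 12.7% of 102 at day 16, 70.5% of 410 at day 18, 15.3% of 98 at day 19 and 26.1% of 69 at day 23. Epithelium was the larger part in the uninjured library and on days 11 and 18. Immune cells were 80.6% of cycling cells in Il10-/- and 84.3% at day 16, and uninjured mice had 42.9%.

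Crypt epithelium, Crypt-1 and Crypt-2 together, had its largest shares of cells in cycle on days 11 and 18. Its share in cycle was 6.36% in Il10-/-, 5.56 in uninjured, and 9.88 at day 6, 6.15 at day 7, 13.5 at day 9, 26.2 at day 11, 9.68 at day 12, 9.22 at day 16, 26.6 at day 18, 8.59 at day 19 and 7.49 at day 23. The intervals of day 11 (23.3% to 29.3%) and day 18 (23.9% to 29.4%) lay above those of Il10-/- (3.22% to 11.1%) and the uninjured library (2.43% to 10.7%). The fresh libraries had 6.15% (day 7), 26.2% (day 11) and 26.6% (day 18), and the frozen DSS libraries 7.49% to 13.5%. The median DSS share was 4.12 percentage points above the uninjured share, and Il10-/- 0.803 points above it. At 5 or more member UMIs the Il10-/- difference turned to -1.62 points. Il10-/- and uninjured crypt cells, of 1 library each, were not tested against each other.

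The mix of crypt types moved with this share. Crypt-1 made up 15.2% of crypt cells in Il10-/- and 8.65% in the uninjured library, and 51.0% on day 11 and 37.7% on day 18, with 10.8% to 26.5% on the other DSS days. Within Crypt-1, cells in cycle and not in cycle numbered 10 and 18 in Il10-/- and 8 and 7 in the uninjured library. They numbered 12 and 10 on day 7, 219 and 219 on day 11 and 260 and 143 on day 18. Among libraries with at least 20 cells, the Crypt-1 share was highest on day 18 (64.5%) and lowest on day 23 (35.4%). Mitochondrial UMIs were a median of 8.25% to 22.9% per crypt cell over the DSS libraries, against 20.3% in uninjured cells. Whether the mix of crypt types or the mitochondrial share plays a part in the result was not tested.

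**Figure D2:**
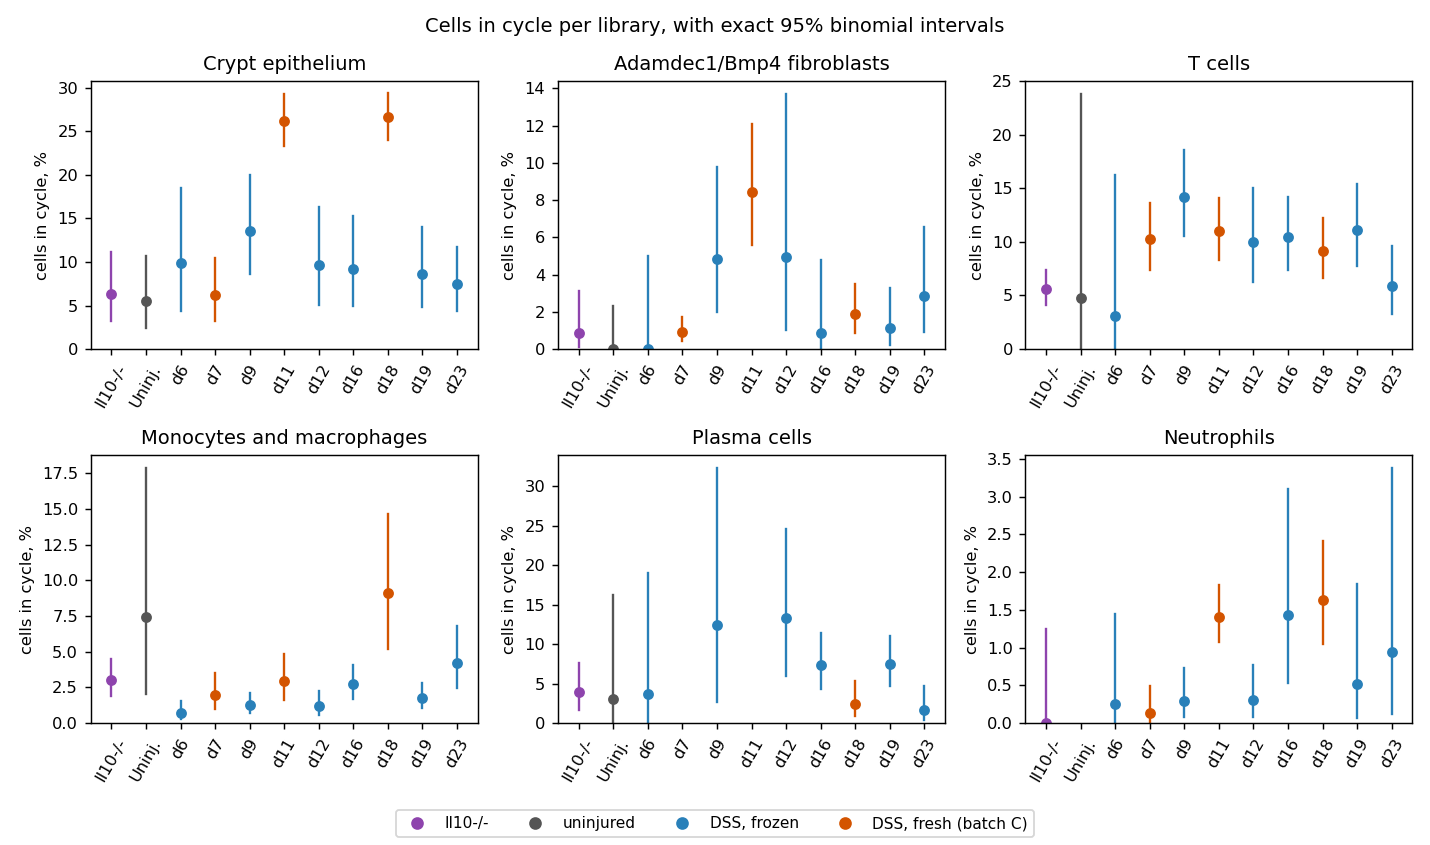
Percent of cells in cycle (points) with exact 95% binomial intervals (lines) for 6 groups of cells, by library, each panel on its own axis. Crypt epithelium is highest on days 11 and 18, Adamdec1/Bmp4 fibroblasts on day 11 and macrophages on day 18, while neutrophils stay at 1.63% or below.

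Levels of single genes are given as CPM, the UMI count of the gene scaled to 1000000 UMIs of the crypt class, 1 value per library. Mcm6, of the replicative helicase, had 14.5 CPM in Il10-/-, 11.6 in uninjured, and 31.0 at day 6, 21.8 at day 7, 35.6 at day 9, 44.6 at day 11, 20.1 at day 12, 15.3 at day 16, 35.2 at day 18, 24.2 at day 19 and 13.7 at day 23. Pcna, the clamp that holds the polymerase on DNA, had 56.8 CPM in Il10-/-, 30.3 in uninjured, and 63.0 at day 6, 79.2 at day 7, 67.1 at day 9, 109 at day 11, 60.4 at day 12, 57.4 at day 16, 94.3 at day 18, 67.1 at day 19 and 45.9 at day 23. Uninjured was the lowest library for both genes and day 11 the highest. Rrm2, the regulated subunit of ribonucleotide reductase, had 15.3 CPM in Il10-/-, 8.38 in uninjured, and 10.3 at day 6, 14.5 at day 7, 37.6 at day 9, 37.6 at day 11, 14.2 at day 12, 17.9 at day 16, 18.5 at day 18, 22.4 at day 19 and 10.3 at day 23. Ccne1, the cyclin of S phase entry, had 10.8 CPM in Il10-/-, 1.93 in uninjured, and 7.23 at day 6, 6.44 at day 7, 5.66 at day 9, 8.87 at day 11, 4.14 at day 12, 3.68 at day 16, 6.29 at day 18, 3.58 at day 19 and 3.17 at day 23. Rrm2 was highest on days 9 and 11 and lowest in the uninjured library, while Ccne1 was highest in Il10-/-.

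Among the G2/M genes the levels of the fresh days 11 and 18 stood out further. Mki67 had 42.3 CPM in Il10-/-, 34.8 in uninjured, and 37.2 at day 6, 73.1 at day 7, 48.1 at day 9, 176 at day 11, 31.4 at day 12, 38.9 at day 16, 268 at day 18, 47.0 at day 19 and 38.3 at day 23. Top2a had 53.1 CPM in Il10-/-, 31.6 in uninjured, and 38.2 at day 6, 47.7 at day 7, 67.5 at day 9, 132 at day 11, 66.9 at day 12, 62.6 at day 16, 174 at day 18, 67.5 at day 19 and 34.8 at day 23. Day 18 was the highest library for both genes and day 11 the next. Cdk1 had 19.9 CPM in Il10-/-, 8.38 in uninjured, and 23.7 at day 6, 18.1 at day 7, 33.2 at day 9, 53.6 at day 11, 21.3 at day 12, 27.4 at day 16, 61.3 at day 18, 32.7 at day 19 and 19.5 at day 23. Ube2c, which tags cyclins for destruction, had 41.9 CPM in Il10-/-, 22.6 in uninjured, and 24.8 at day 6, 51.5 at day 7, 70.4 at day 9, 161 at day 11, 17.8 at day 12, 53.7 at day 16, 186 at day 18, 68.9 at day 19 and 50.1 at day 23. Cdk1 and Ube2c were again highest on days 18 and 11, and Ube2c had less on day 12 than in the uninjured library.

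Against the uninjured library, Ube2c was 8.23-fold on day 18 and 7.14-fold on day 11 (5.13 to 10.3, exact 95% interval of counting error), and Cdk1 7.31-fold and 6.40-fold (3.73 to 12.0 on day 11). Mki67 was 7.69-fold on day 18 and 5.05-fold on day 11, and Top2a 5.51-fold and 4.17-fold. The S genes had smaller ratios on day 18, at 3.11-fold for Pcna, 3.03-fold for Mcm6 and 2.20-fold for Rrm2 (1.28 to 4.16). In Il10-/- crypt cells Ccne1 had the largest ratio of the 8 genes, 5.57-fold (1.71 to 28.8), then Cdk1 at 2.37-fold (1.27 to 4.78), while Mki67 was 1.21-fold (0.865 to 1.72). With 1 library per group these ratios have no replicate check.

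**Figure D3:**
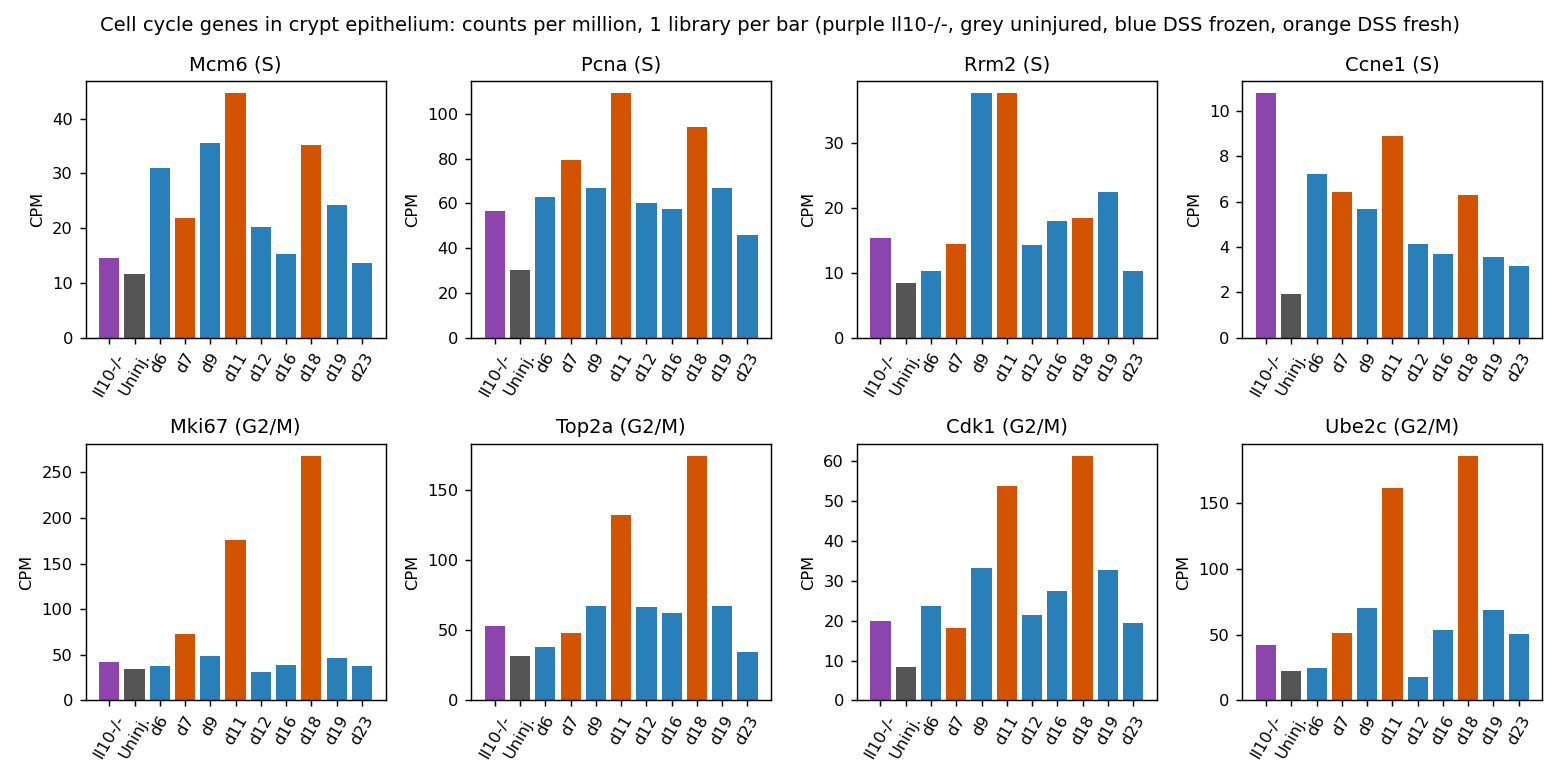
Levels (CPM) in crypt epithelium for 4 S genes (top) and 4 G2/M genes (bottom), 1 library per bar, with Il10-/- in purple, uninjured in grey, frozen DSS libraries in blue and fresh ones in orange. Mki67, Top2a, Cdk1 and Ube2c are highest on day 18, Ccne1 in Il10-/-.

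Across the 40 genes, those with at least 20 counts in 1 library of a pair were set against the uninjured crypt cells. In Il10-/- cells 6 of 31 were at least 2-fold higher and 0 lower, beside 8.16% of all genes higher and 3.63% lower. Early in DSS, 4 of 18 were higher at day 6 (7.07% of all genes, 6.65% lower), 13 of 40 at day 7 (15.1%, 6.52% lower) and 26 of 37 at day 9 (11.9%, 6.59% lower). Then 39 of 40 were higher at day 11 (20.1%, 8.88% lower), 6 of 26 at day 12 (8.84%, 4.49% lower) and 10 of 30 at day 16 (6.15%, 2.97% lower). Late, 37 of 40 were higher at day 18 (19.4%, 5.97% lower), 20 of 35 at day 19 (8.85%, 4.02% lower) and 5 of 36 at day 23 (8.39%, 2.75% lower). In these DSS libraries 0 members were at least 2-fold lower, and with mitochondrial genes left out of the totals 1 of 26 was, at day 12. The fresh libraries of days 11 and 18 had the most members higher and also the largest shares of all genes higher. Only 18 members were counted at day 6, so at most 18 reached 20 counts in the uninjured library. The further members counted on other days passed through the other library alone. The counts of members higher and lower thus partly reflect this filter, which also applied to all genes. Without mitochondrial genes the count of members higher was 7 on day 7 and 0 on day 23, and the median log2 ratio of all genes on day 7 moved to -0.13, beside 0.20 with them.

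Storage was then compared within Crypt-1 cells, a comparison added after the data were seen. In 11 of 40 members all 3 fresh libraries lay above all 6 frozen ones, Il10-/- among them, beside 11.7% of 7822 genes of at least 10 CPM on average, and in 0 members all lay below, beside 3.41%. The 11 were Cenpf, Bub1b, Bub1, Tpx2, Ube2c, Cenpe, Cdca8, Tyms, Mki67, Kif20b and Kif11. Mki67 had 277 to 492 CPM in fresh and 123 to 151 CPM in frozen Crypt-1 cells, a 2.80-fold ratio of the means. Top2a overlapped between fresh and frozen libraries. In T-Prolif cells, by the same comparison with 4 frozen libraries, 1 of 40 members lay above in all 3 fresh libraries (6.36% of 6995 genes) and 2 lay below (5.49%). In the crypt values of Mki67 and Ube2c above, storage and day cannot be told apart on the fresh days.

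Over the DSS days as a line, no member of crypt epithelium was called by edgeR's quasi-likelihood test (adjusted p under 0.05 over all genes, 9 libraries, batch label as a term), 0 of 40, and 3 members, Kif20b, Pttg1 and Ccne1, had an unadjusted p under 0.05. The share called was 0% of 10009 genes in either direction, although 1429 genes had an unadjusted p under 0.05 and DESeq2 called 293 genes. The median slope, in log2 units per 10 days, was -0.24 over the S genes and 0.38 over the G2/M genes, against 0.02 over all genes. Over all 40 members the median was 0.25, and it turned to -0.18 in the 6 frozen libraries and to -0.10 without day 7, and was 0.03 without day 18. In Crypt-1 cells alone, a setting added later, 1 of 40 members fell, Rrm2 (slope -0.90, edgeR adjusted p = 0.0158), and 0 rose, beside 0.712% of 8281 genes falling and 0.688% rising.

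Monocytes and macrophages were the class, of the 6 planned for a day trend, in which cell cycle genes rose with day after DSS. Of 37 members tested there, 25 rose and 0 fell (edgeR), beside 5.28% of 10058 genes rising and 7.13% falling. By phase it was 9 of 14 S genes and 16 of 23 G2/M genes. All 37 slopes were above 0, with a median of 1.06 log2 units per 10 days, against 0.01 over all genes. The p-values measure the spread between these single libraries.

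The 6 called genes with the largest slopes were, by role, a helicase subunit, the mitotic kinase and parts of the checkpoint and spindle. Mcm2 had 7.31 CPM in Il10-/-, 18.9 in uninjured, and 2.46 at day 6, 3.26 at day 7, 2.63 at day 9, 7.36 at day 11, 3.40 at day 12, 7.74 at day 16, 21.6 at day 18, 4.34 at day 19 and 11.7 at day 23. Its slope was 1.61 (SE 0.28, edgeR adjusted p = 0.0032). Cdk1 had 14.6 CPM in Il10-/-, 18.9 in uninjured, and 2.82 at day 6, 3.72 at day 7, 4.44 at day 9, 10.6 at day 11, 4.63 at day 12, 10.3 at day 16, 17.6 at day 18, 8.20 at day 19 and 15.8 at day 23. For Cdk1 the slope was 1.43 (SE 0.23, edgeR adjusted p = 0.0021). Among the DSS libraries both genes were highest on day 18, which had the fewest cells of this class (168, in a range up to 1464). The uninjured library, also of few cells, was near that level.

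Bub1, a checkpoint kinase, had 1.55 CPM in Il10-/-, 0 in uninjured, and 0 at day 6, 1.55 at day 7, 1.21 at day 9, 2.90 at day 11, 0.927 at day 12, 2.06 at day 16, 12.0 at day 18, 0.241 at day 19 and 4.08 at day 23. Cdc20, which starts anaphase, had 2.88 CPM in Il10-/-, 7.55 in uninjured, and 2.82 at day 6, 1.09 at day 7, 1.82 at day 9, 6.20 at day 11, 1.24 at day 12, 3.35 at day 16, 17.6 at day 18, 3.38 at day 19 and 7.13 at day 23. Day 18 was again the highest library for Bub1 and Cdc20. Cenpe, a kinetochore motor, had 3.54 CPM in Il10-/-, 18.9 in uninjured, and 0.352 at day 6, 3.10 at day 7, 2.02 at day 9, 7.36 at day 11, 2.16 at day 12, 4.64 at day 16, 19.4 at day 18, 2.17 at day 19 and 3.57 at day 23. Kif20b, a kinesin of cytokinesis, had 4.65 CPM in Il10-/-, 3.78 in uninjured, and 1.06 at day 6, 2.95 at day 7, 0.808 at day 9, 3.68 at day 11, 0.618 at day 12, 2.58 at day 16, 10.8 at day 18, 0.965 at day 19 and 4.08 at day 23. The slopes were 1.92 (SE 0.55) for Bub1, 1.67 (SE 0.43) for Cdc20, 1.47 (SE 0.39) for Cenpe and 1.40 (SE 0.39) for Kif20b, with edgeR adjusted p of 0.0384, 0.0269, 0.0257 and 0.0317. These calls depended on the setting: Bub1 was called in 6 of 13 settings (edgeR or DESeq2 adjusted p up to 0.353), Kif20b in 8 of 13 (up to 0.470), and Cdc20 and Cenpe in 9 of 15 each (up to 0.376 and 0.422). Mcm2 and Cdk1 were called in 14 of 15 each.

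The 12 members not called included Pcna (slope 0.06), Pttg1 (0.04), Cenpa (0.12) and Mcm4 (0.31). Day 18 weighs on the count: without it 8 members were called, as in the 6 frozen DSS libraries, and 1 (Cdk1) when the batch label was left out of the model. It was 14 without day 6, 14 without day 7 and 11 without day 23. The slopes of the 25 genes were above 0 in each of these settings where they were tested. Without the proliferating macrophage type, 4 were called, Mcm2, Mcm6, Mcm7 and Gins2, all of the replicative helicase.

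That proliferating type was 3.58% of the class in Il10-/- and 5.97% in the uninjured library. In DSS libraries it was 0.302% at day 6, 1.39% at day 7, 0.751% at day 9, 1.21% at day 11, 1.10% at day 12, 1.52% at day 16, 7.74% at day 18, 1.79% at day 19 and 2.61% at day 23. The share of the whole class in cycle was 2.99% in Il10-/-, 7.41 in uninjured, and 0.723 at day 6, 1.97 at day 7, 1.29 at day 9, 2.92 at day 11, 1.22 at day 12, 2.71 at day 16, 9.15 at day 18, 1.78 at day 19 and 4.24 at day 23. Day 18 was the highest DSS library, and the uninjured value came from 54 cells (interval 2.06% to 17.9%).

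Other genes of the cycle, on lists chosen with earlier results of these data known, were set beside the members in macrophages. Further S genes rose in 10 of 18 tested, among them Chaf1a (slope 1.74), Ung (1.69), Tk1 (1.42) and Lig1 (1.27), and further G2/M genes in 10 of 23, among them Kif22 (1.69), Pbk (1.52), Kif15 (1.39) and Ndc80 (1.29). On the list of cycle entry genes 2 of 13 rose, Cdk4 and Gmnn, though Gmnn (geminin) is not itself an entry factor. Of genes that brake the cycle 2 of 14 fell, Cdkn1b (-0.55) and Ccng2 (-0.45).

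Markers of other cells also moved in this class. Neutrophil markers fell in 2 of 8, with a summed level of 717 to 11066 CPM over DSS libraries, 2670 in Il10-/- and 242 in the uninjured library. Fibroblast markers fell in 3 of 7 tested, with a summed level of 62.0 to 283 CPM over DSS libraries, 128 in Il10-/- and 253 in the uninjured library. B cell markers rose in 3 of 4 tested, T cell markers in 2 of 6, and macrophage markers in 2 of 9 (C1qa and C1qc). Summed B cell markers were 6.79 to 48.0 CPM over DSS libraries and summed T cell markers 13.7 to 43.8 CPM, with Cd3e at 0 on day 18. The part of these markers in the slopes was not tested.

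**Figure D4:**
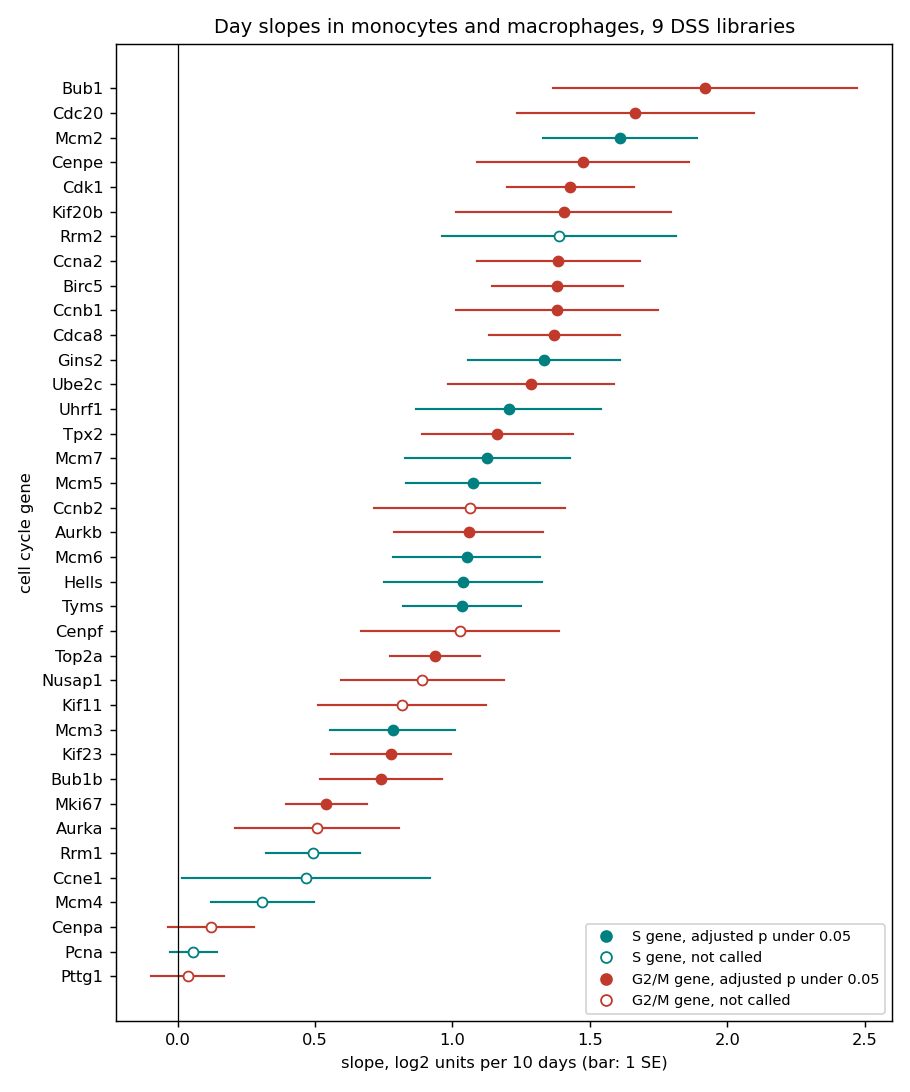
Slope with day (x axis, log2 units per 10 days, bar 1 SE) of the 37 cell cycle genes tested in monocytes and macrophages over 9 DSS libraries, with filled points for genes past an adjusted p of 0.05. All slopes are above 0, 25 points are filled, and Bub1 is at the top with 1.92.

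Fibroblasts marked by Adamdec1 and Bmp4 had their highest shares in cycle at days 9 to 12. Their share in cycle was 0.870% in Il10-/-, 0 in uninjured, and 0 at day 6, 0.943 at day 7, 4.86 at day 9, 8.41 at day 11, 4.92 at day 12, 0.877 at day 16, 1.86 at day 18, 1.14 at day 19 and 2.86 at day 23. Day 11 had 8.41% (5.57% to 12.1%), above the interval of the uninjured library (0% to 2.34%), while the intervals of day 9 (1.98% to 9.76%) and day 12 (1.03% to 13.7%) overlapped it. The Pi16/Pcolce2 fibroblasts had 0% to 1.48% in cycle.

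In the Adamdec1/Bmp4 cells Top2a had 10.2 CPM in Il10-/-, 0 in uninjured, and 3.56 at day 6, 14.05 at day 7, 79.6 at day 9, 118 at day 11, 162 at day 12, 4.04 at day 16, 18.5 at day 18, 21.8 at day 19 and 20.5 at day 23. Cdk1 had 3.05 CPM in Il10-/-, 1.63 in uninjured, and 3.56 at day 6, 5.19 at day 7, 42.4 at day 9, 55.0 at day 11, 68.5 at day 12, 4.04 at day 16, 10.7 at day 18, 5.74 at day 19 and 8.80 at day 23. Both were highest on days 9, 11 and 12, in fresh and frozen libraries alike. Few cells of this type were in cycle, with 7 on day 9, 26 on day 11 and 3 on day 12. Mki67 had 4.06 CPM in Il10-/-, 0 in uninjured, and 0 at day 6, 5.04 at day 7, 16.7 at day 9, 51.4 at day 11, 31.1 at day 12, 0 at day 16, 16.3 at day 18, 5.74 at day 19 and 4.40 at day 23. Pcna, by contrast, had 71.1 CPM in Il10-/-, 39.1 in uninjured, and 92.5 at day 6, 102 at day 7, 70.6 at day 9, 108 at day 11, 71.6 at day 12, 66.7 at day 16, 78.0 at day 18, 66.6 at day 19 and 66.0 at day 23, with days 9 and 12 within the range of the other DSS days. Among all fibroblasts, 1 of 12 members was at least 2-fold above the uninjured library in Il10-/- (4.97% of all genes) and 1 of 12 as far below it (1.75%). In DSS libraries those above numbered 1 of 8 at day 6 (7.1% of all genes), 20 of 37 at day 7 (17.3%), 14 of 21 at day 9 (8.56%), 34 of 40 at day 11 (19.9%) and 3 of 10 at day 12 (6.99%). Later they were 0 of 7 at day 16 (6.56%), 21 of 34 at day 18 (20.6%), 1 of 8 at day 19 (6.42%) and 0 of 7 at day 23 (4.47%). The counts were largest in the 3 fresh libraries, days 7, 11 and 18, where most members reached the count minimum. Those below numbered 1 at day 7 (5.49%), 1 at day 11 (3.97%) and 0 at days 6 (10.4%), 9 (9.85%), 12 (7.75%), 16 (7.12%), 18 (2.2%), 19 (6.42%) and 23 (3.52%). With 7 members counted on days 16 and 23, at most 7 reached the count minimum in the uninjured library. Further members on other days passed through the other library alone, and counts of 0 were set to 3. The counts above and below thus partly reflect the filter, which also applied to all genes.

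A line over the days did not call these genes. In fibroblasts 0 of 26 members were called by edgeR (1.99% of genes rising and 2.65% falling), in T cells 0 of 36 (0.102% and 0.115%), in blood endothelium 0 of 7 (0.876% and 0.424%) and in B cells 0 of 13 (0.35% and 0.525%). The lowest adjusted p of a member was 0.0867 in fibroblasts, 0.245 in T cells, 0.591 in blood endothelium and 0.586 in B cells. An unadjusted p under 0.05 was found for 2 members in fibroblasts (Pcna and Ccne1), 6 in T cells, all of them S genes with slopes below 0, and 0 in blood endothelium and B cells. DESeq2 called 0 members in these classes.

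T cells, both types together, had a share in cycle of 5.58% in Il10-/-, 4.76 in uninjured, and 3.12 at day 6, 10.2 at day 7, 14.2 at day 9, 11.0 at day 11, 10.0 at day 12, 10.4 at day 16, 9.15 at day 18, 11.1 at day 19 and 5.86 at day 23. The DSS days from 7 to 19 lay between 9.15% and 14.2%, above the 5.58% of Il10-/- and the 4.76% of uninjured mice, which rested on few cells. In these cells Top2a had 104 CPM in Il10-/-, 35.6 in uninjured, and 58.3 at day 6, 209 at day 7, 149 at day 9, 146 at day 11, 95.8 at day 12, 119 at day 16, 101 at day 18, 189.7 at day 19 and 88.8 at day 23. Day 7 was highest and the uninjured library lowest. Plasma cells had 3.92% in cycle in Il10-/-, 3.12% in the uninjured library, and 3.70% at day 6 (1 of 27 cells), 12.5% at day 9 (3 of 24), 13.3% at day 12 (8 of 60), 7.33% at day 16, 2.48% at day 18, 7.48% at day 19 and 1.66% at day 23, with under 20 cells on days 7 and 11. B cells had 0% to 6.45%, the top value being 2 of 31 cells on day 6.

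The 40 genes differed in how closely they kept to cycling cells. For each gene, cells were called by the other 39 and the share of its UMIs within those cells was taken per library. The median was 72.7% for Nusap1, 66.7% for Bub1 and Tpx2, 57.9% for Cdk1 and 56.3% for Top2a, but 12.8% for Pcna, 10.5% for Mcm4 and 1.66% for Pttg1. Kif23 had 18.2% and Cenpa 13.4%. Mcm4 and Pcna were the lowest S genes, and most G2/M genes lay above the highest S gene, Rrm2 at 48.8%. Of the 40 genes 24 were G2/M genes, so a call by the other 39 leans to that phase. The order of the 2 phases can come from the call itself and is only a description.

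By level, T-Prolif was the highest of 22 types for 37 members, Crypt-1 for Cdc20 and Aurka, and neutrophils for Pttg1. Types with enough cells in fewer than 3 libraries, the proliferating macrophages among them, were not ranked. Mki67 averaged 489 ± 162 CPM in T-Prolif (SD, n = 7 libraries) and 216 ± 134 CPM in Crypt-1 (n = 9). Top2a averaged 803 ± 188 CPM in T-Prolif and 220 ± 52.5 CPM in Crypt-1. Cdc20 averaged 92.9 ± 24.4 CPM in Crypt-1 and 85.0 ± 35.1 CPM in T-Prolif, which differ by less than the spread between libraries.

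**Figure D5:**
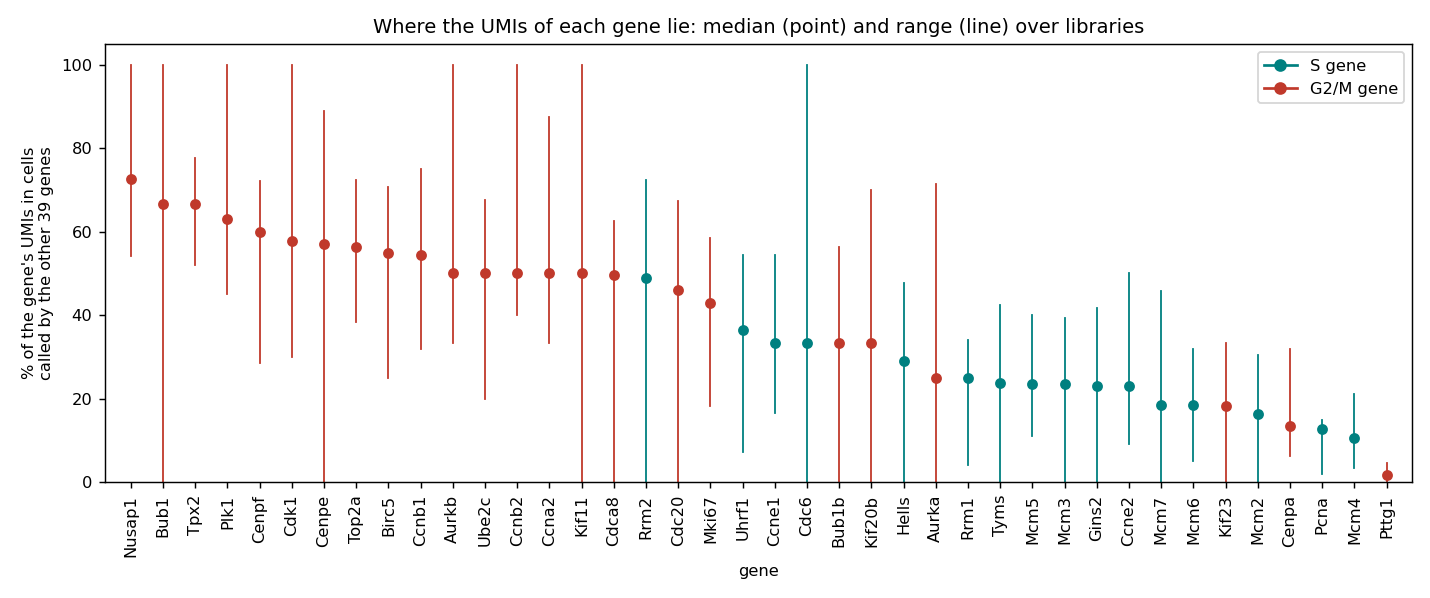
For each of the 40 genes (x axis), the percent of its UMIs found in cells called in cycle by the other 39 genes, as median (point) and range (line) over libraries, S genes in teal and G2/M genes in red. Nusap1 has the highest median, 72.7%, and Pttg1 the lowest, 1.66%.

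What else marked a cycling cell was asked by summing, per library, cells in cycle and cells not in cycle and testing genes outside the 40 (edgeR with the library as a block, 9 libraries), a test added after the data were seen. In Crypt-1 cells 280 of 6533 genes were higher in cycling cells (4.29%) and 258 lower (3.95%), and in T cells 1026 of 7442 higher (13.8%) and 1368 lower (18.4%). Most cycling T cells were of the T-Prolif type, which the authors' clustering had set apart, and the clustering may have used the same genes. Cycling cells were also deeper in each of the 9 libraries, with medians of 10590.5 UMIs in cycle and 5661 out of cycle in T cells at day 11, for instance.

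Further G2/M genes were higher in cycling cells in 35 of 35 tested in Crypt-1 and 37 of 37 in T cells, and further S genes in 10 of 17 and 19 of 19. The cells had been split by their UMIs of the member genes, so genes transcribed together with the members tend to be higher through the split itself. These counts therefore describe the split and are not a separate test of what marks a cycling cell. Genes that brake the cycle were split. In Crypt-1 cells the kinase inhibitors Cdkn2c (log2 fold change 1.04) and Cdkn2d (0.97) were higher and the antiproliferative genes Btg1 (-0.60), Btg2 (-0.44) and Ccng1 (-0.37) lower, of 10 tested. In T cells Cdkn2a (2.34), Cdkn2c (2.00), Rbl1 (1.68) and Cdkn2d (0.68) were higher and Btg1 (-1.24), Btg2 (-0.80), Cdkn1b (-0.72) and Cdkn1a (-0.46) lower, of 14 tested. On the list of cycle entry genes 9 of 12 differed in T cells. E2f1 (3.13), E2f2 (2.68) and Gmnn (2.63) were among the 8 higher, and Ccnd2 (-1.03) was the lower one. In Crypt-1 cells 1 of 10 differed, Gmnn (0.47), which is on the list but is not itself an entry factor.

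Markers of other cells moved with the split. Neutrophil markers were lower in cycling cells in 2 of 7 tested in Crypt-1 and 6 of 7 in T cells. In cycling T cells 4 of 8 tested T cell markers were lower (Cd3d, Cd3g, Trbc1 and Trbc2) and 0 higher. Of all non-member genes tested in T cells 18.4% were lower and 13.8% higher. The part of these markers in the gene counts was not tested.

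Pttg1, whose product securin holds sister chromatids together until anaphase, had its highest mean level of the ranked types in neutrophils. The mean was 108.6 ± 50.9 CPM (SD, n = 10 libraries). Myofibroblast-NA had 89.3 ± 37.8 CPM (n = 4) and Myofibroblast-Apold1 88.3 ± 23.7 CPM (n = 3), which differ from it by less than the spread between libraries. In neutrophils Pttg1 had 61.3 CPM in Il10-/-, and over the DSS days 58.2 at day 6, 40.9 at day 7, 80.2 at day 9, 95.8 at day 11, 104 at day 12, 133 at day 16, 152 at day 18, 174 at day 19 and 187 at day 23. From day 7 on, each later library was higher than the one before, in fresh and frozen libraries alike. The slope was 0.81 log2 units per 10 days (SE 0.19, edgeR adjusted p = 0.0379), and Pttg1 was the 1 of 23 members called (0.584% of genes rose and 2.03% fell). Of the 23, 22 had slopes above 0, with a median of 1.197, against 0.02 over all genes, so the slope of Pttg1 was below that of the median member. This trend was added after the Pttg1 levels were seen. It missed the threshold in edgeR when the batch label was left out (adjusted p = 0.149), in the 6 frozen DSS libraries (0.0585) and without any 1 of days 6, 7, 9, 16, 18, 19 and 23 (up to 0.123), with slopes of 0.65 to 1.01 over all settings tried. The neutrophil markers S100a8 (-1.21), S100a9 (-0.90) and Mmp9 (-0.89) fell in the same cells. Slopes were above 0 for 11 of 12 columnar epithelial markers (median 0.50) and 8 of 8 blood endothelial markers (median 1.84), of which 0 were called, and summed levels over the Il10-/- and DSS libraries were 555 to 2667 CPM and 12.0 to 530 CPM. The part of these markers in the neutrophil slopes was not tested. Without Pttg1 in the call, neutrophils had 0% to 0.984% of cells in cycle.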

How the data were processed

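Single-cell 3' RNA sequencing of colonic mucosa yielded a matrix of raw UMI counts. The authors made the deposited counts with Cell Ranger 3.0.0 on mm10, per the submitters' processing notes; their cell filters and doublet treatment are not stated in these sources, and no doublet caller was run. Of 14 libraries and 68224 cells, the 11 libraries that matched a sample were used; 3 with 12621 cells were not used here. Of 30406 gene rows, 597 placeholder rows (0.517% of counts) were left out. Members, gene lists and tests were chosen with earlier results of these data known. The tests of cycling against other cells, storage, the neutrophil trend, the leading-type settings (Crypt-1 alone, no proliferating macrophages), non-mitochondrial thinning, the at least 5 UMI split and the call without Pttg1 were added after the data were seen.

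Cells were thinned without replacement to 1000 UMIs and called in cycle at 3 or more member UMIs (phases at 2 or more); shares with at least 20 cells carry exact Clopper-Pearson 95% intervals. Trends used counts summed per library and class, edgeR 4.0.16 (quasi-likelihood, robust, TMM, filterByExpr) with day per 10 days and batch label as terms over 9 DSS libraries, and Benjamini-Hochberg adjustment over all genes at 0.05; DESeq2 1.42.0 was the alternative (R 4.3.3, limma 3.58.1, Python 3.11.15). With 1 library per group no groups were tested against each other: ratios to the uninjured library were taken for genes that reached 20 counts in either library, called at 2-fold. The 8 genes shown in crypt cells and up to 6 called members with the largest slopes per class were named in full. Steps were tested on simulated data. For trends, 29% (neutrophils) to 81% of genes with a slope of size 1 were recovered, and 3.93% to 7.44% of calls were false. For cycling against other cells, 8.57% (Crypt-1) and 8% (T cells) of calls were false. Promoters came from RefSeq.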

Additional observations from a re-analysis of the deposited data

How the results depend on the processing

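No paired analysis was possible because each group had 1 library. Of member counts called with day, the crypt count of 0 became 5 with no filter on low counts (Ccnb2, Cenpf, Kif20b, Nusap1 and Ube2c) and 1 in Crypt-1 alone; the macrophage count of 25 became 1 with no batch term, 8 in the 6 frozen libraries and 4 without the proliferating type, and ran from 8 (without day 18) to 25 when 1 library was left out. The fibroblast count ran from 0 to 3 (Ccne1, Cenpe and Nusap1, without day 7; Pcna without day 19). The neutrophil count of 1 became 2 with DESeq2 (Pttg1 and Tyms), 7 with no filter and 0 with no batch term or in the 6 frozen libraries, and ran from 0 to 3 (Pttg1, Top2a and Tyms, without day 11). T cell, B cell and endothelial member counts stayed at 0 in the settings tried.

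All genes called moved more. Crypt epithelium (0) had 293 with DESeq2, 958 with no filter, 27 in the 6 frozen libraries and 116 in Crypt-1 alone; fibroblasts (478) had 762 with DESeq2 and 89 with no batch term; blood endothelium (46) had 107 with DESeq2, 411 with no filter, 17 with no batch term and 86 in the 6 frozen libraries. Macrophages (1248) had 152 with no batch term; T cells (17) had 73 with DESeq2, 266 with no filter, 0 with no batch term and 43 in the 6 frozen libraries; B cells (60) had 121 with no filter and 0 with no batch term; neutrophils (219) had 443, 770, 21 and 134 with DESeq2, no filter, no batch term and the 6 frozen libraries. Leaving out 1 library gave 0 to 126 in crypt epithelium, 167 to 636 in fibroblasts, 39 to 78 in endothelium, 447 to 1368 in macrophages, 0 to 110 in T cells, 23 to 132 in B cells and 35 to 286 in neutrophils. The causes were not tested.

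At 5 or more member UMIs the Il10-/- minus uninjured crypt share was -1.62 points, against 0.803 at 3; the median DSS minus uninjured difference stayed above 0 throughout (0.746 to 7.09). At 2 or more UMIs the median share of cells in cycle over libraries was 5.65%, against 2.46%. Without mitochondrial genes the crypt members at least 2-fold higher numbered 7 at day 7 and 0 at day 23, against 13 and 5. At 5 or more UMIs 848 genes separated cycling Crypt-1 cells, in 3 libraries. Classes of few cells, such as the 54 uninjured macrophages, limit what a share can show.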

Other observations

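Genes past the threshold were ranked after leaving out mitochondrial genes and those with provisional names (Gm with a number, or ending in Rik). Beyond the cell cycle lists, the ranked gene most raised in cycling Crypt-1 cells was Hist1h1b, a linker histone, with 79.5 ± 84.0 CPM in cycle and 17.0 ± 16.9 CPM out of cycle (SD, n = 9 libraries; log2 fold change 2.20 ± 0.14 SE in edgeR). It was higher in 9 of 9 libraries. Chga, the granule protein of enteroendocrine cells, had the largest decrease of the ranked genes in cycling Crypt-1 cells, with 0.954 ± 1.90 CPM in cycle and 10.3 ± 18.3 CPM out of cycle, higher in 0 of 9 libraries. In cycling T cells Bach2, a factor of resting lymphocytes, had 4.36 ± 5.33 CPM, against 19.99 ± 13.2 CPM in T cells out of cycle. These 3 genes were picked from the genes past the threshold after their values were seen.

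Of 11317 thinned neutrophils, 101 were called in cycle, 56 of them at day 11 and 24 at day 18. Pooled over libraries, in which these days weigh differently, their summed neutrophil markers were at 152867 CPM, against 249481 CPM in neutrophils not in cycle, and their columnar epithelial markers at 4015 CPM, against 1373 CPM.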
